A study of Mus musculus with 6 samples.

Results

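Serotonin receptors are the membrane proteins through which serotonin, released in the cortex by axons of the raphe nuclei of the brainstem, acts on neurons. The receptor genes described here are Htr1a, Htr1b, Htr1d, Htr1f, Htr2a, Htr2c, Htr3a, Htr4, Htr5a and Htr7, taken by symbol from the deposited count table. These are 10 of 33274 gene rows, and each symbol had 1 row. Poly(A) RNA came from cerebral cortex. The animals were females of the outbred ICR stock, labelled wild type and 6 weeks old. Their grandsires received methylphenidate, a stimulant that blocks reuptake of noradrenaline and dopamine, at 15 mg/kg under the skin for 21 days (methylphenidate lineage, 3 libraries), or saline at 10 mL/kg on the same schedule (saline lineage, 3 libraries). Dosed males were mated with undosed females, and 1 son from each litter was mated with an undosed female, so the animals sequenced were grandoffspring that had received no drug. The labels do not say which of these animals shared a grandsire or a litter, and p-values therefore measure only the spread between these samples. The question was whether receptor RNA in granddaughters depended on what the grandsire had been given.

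All serotonin receptors but the Htr3 family are coupled to G proteins. Receptors of the Htr1 family and Htr5a act through Gi/o proteins, which lower cyclic AMP and, for Htr1a, open inwardly rectifying potassium channels. Htr2a and Htr2c act through Gq and phospholipase C, and Htr4 and Htr7 act through Gs and adenylyl cyclase. Htr3a encodes the subunit that forms the serotonin-gated cation channel. In cortex, Htr2a is known from pyramidal neurons, and is the receptor through which psychedelic drugs act, Htr1a is known from pyramidal cells and interneurons, and Htr3a from interneurons that arise in the caudal ganglionic eminence (CGE).

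Total counts lay between 23896752 and 28120640 per library. Levels are given as CPM, the counts of a gene relative to its library size after scaling by the trimmed mean of M values (TMM), and differences as log2 fold changes, methylphenidate minus saline, with the standard error (SE) of the fit. Over the whole table, edgeR's quasi-likelihood test with Benjamini-Hochberg adjustment called 5 of 18327 genes tested at an adjusted p under 0.05, which is 0.0273% (0.0218% higher and 0.00546% lower in the methylphenidate lineage). Markers of cortical excitatory neurons were plentiful in every library, with a summed level of 4637 to 5234 CPM over the 7 genes of the list. Libraries differed in genes of neighbouring tissue. Choroid plexus markers summed to 46.5 to 691.4 CPM in saline and 26.1 to 521.5 CPM in methylphenidate libraries, and striatal projection neuron markers to 248.8 to 347.8 and 344.0 to 824.6 CPM. In bulk tissue, fewer cells of a type and less RNA per cell cannot be told apart.

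Per kilobase of exon, a scale for comparing genes with each other, Htr2a was the highest of the 10 receptors and Htr1d and Htr4 were the lowest. The length was that of all annotated exons of a gene merged, whether or not they are used in cortex, so the order depends on the annotation. In CPM, without lengths, Htr2c and Htr2a had nearly equal means of 29.9 and 29.5, and Htr2c has 9.33 kb of exon against 5.61 kb. Htr2a lay at a mean of 5.26 CPM per kb, with a range of 4.22 to 7.31 over the 6 libraries. Htr1a followed at 4.21, Htr7 at 3.87, Htr5a at 3.86, Htr2c at 3.21, Htr3a at 2.18, Htr1b at 1.35 and Htr1f at 1.23 CPM per kb. Htr1d and Htr4 lay at 0.23 and 0.22 CPM per kb. The 5 receptors with the highest means included members of each G protein class.

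Most neighbours in this order could not be separated. Of the 9 neighbouring pairs, 8 had ranges over the 6 libraries that overlapped, and 1 pair did not, since the lowest value of Htr1f, 0.75 CPM per kb, lay above the highest of Htr1d, 0.55. Htr2a exceeded Htr1a in 5 of 6 libraries, and Htr3a exceeded Htr1b in 6 of 6 although their ranges over libraries overlapped. Htr7 and Htr5a, Gs- and Gi/o-coupled receptors with nearly equal means, stood in the order of their means in 2 of 6 libraries.

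**Figure D1:**
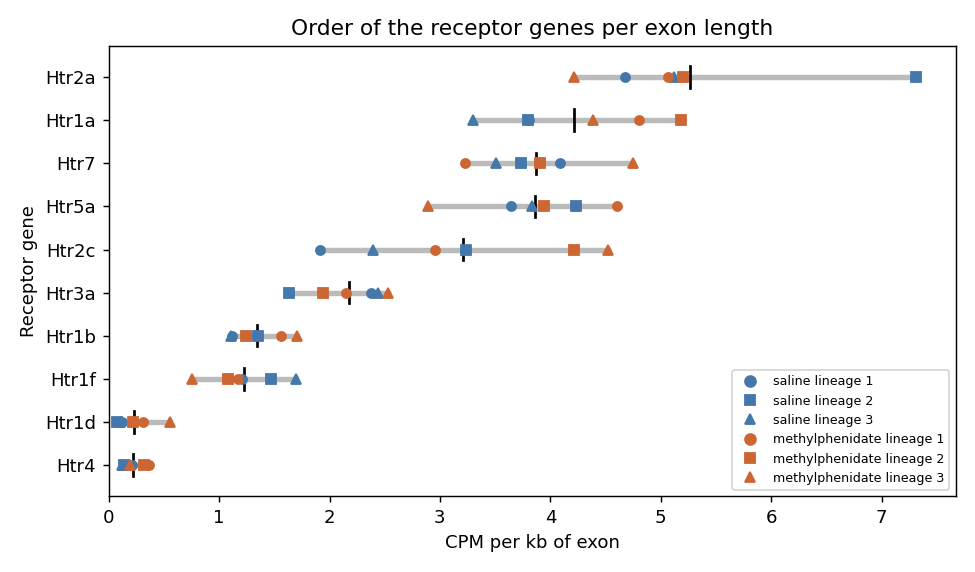
Level of each receptor gene in CPM per kb of exon (x axis), one row per gene, with a point for each library (blue, saline lineage; orange, methylphenidate lineage), a grey bar for the range and a black tick for the mean of the 6 libraries. Htr2a has the highest mean, 5.26, and the bars of all neighbouring rows overlap except those of Htr1f and Htr1d.

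No receptor passed the threshold. Of the 10 members, all 10 passed the filter on low counts, and 0 had an edgeR adjusted p under 0.05 (0.0273% of all genes tested did). With DESeq2 and limma-voom the count was also 0. The edgeR adjusted p ran from 0.389 for Htr1d to 0.984 for Htr3a. At an unadjusted p under 0.05 there were 3 members, Htr1a, Htr1d and Htr2c, where 7.51% of all genes tested passed. The log2 fold change was above 0 in 7 members and below 0 in 3, with a median of 0.20, against 50.3% above 0 and a median of 0.00 over all genes tested. The groups did not overlap in 3 members, Htr1a and Htr1d (higher) and Htr1f (lower), where 13.5% of all genes tested did not overlap, 6.97% higher and 6.51% lower. Htr1d reached the filter's 0.40 CPM in 3 methylphenidate and 0 saline libraries, so it was tested only because it was high in 1 group. It had to differ to be tested, and these counts are a description that supports nothing.

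**Figure D2:**
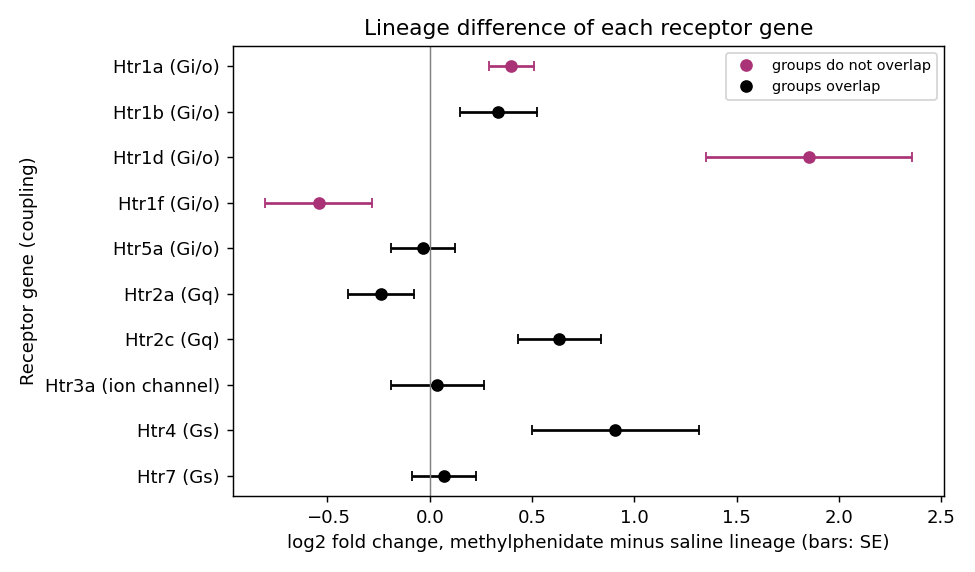
Log2 fold change of each receptor gene, methylphenidate minus saline lineage (x axis), with bars for the standard error of the edgeR fit, rows ordered by coupling. Values run from -0.54 for Htr1f to 1.85 for Htr1d, and the 3 coloured points mark genes whose groups do not overlap.

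Of the 5 Gi/o-coupled receptors, 3 had log2 fold changes above 0 and 2 below, with a median of 0.34. Htr1a encodes the inhibitory receptor that also serves as autoreceptor on raphe neurons. It lay at 17.1, 17.0 and 14.8 CPM in saline replicates 1, 2 and 3 and at 21.5, 23.3 and 19.7 CPM in methylphenidate replicates 1, 2 and 3. Every methylphenidate library lay above every saline library. The saline mean was 16.3 ± 1.29 CPM and the methylphenidate mean 21.5 ± 1.79 CPM (SD, n = 3 per group), a log2 difference of 0.40 (SE 0.11, adjusted p by edgeR = 0.397). Htr1a had the smallest standard error of the 10 receptors, and its log2 fold change stayed between 0.33 and 0.46 when each library was left out in turn.

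Htr1d encodes a receptor on nerve terminals that, with the Htr1b receptor, is a target of triptan drugs. Its counts were 10, 6 and 8 in saline replicates 1, 2 and 3 and 24, 20 and 43 in methylphenidate replicates 1, 2 and 3, which is 0.38, 0.23 and 0.33 CPM against 0.99, 0.70 and 1.77 CPM. The groups did not overlap, and methylphenidate replicate 3 stood above the other 2 libraries of its lineage. The log2 fold change was 1.85 (SE 0.50, adjusted p by edgeR = 0.389), and it was 1.41 without methylphenidate replicate 3. Counting error alone gives a coefficient of variation of 35.4% at the mean saline count and 18.6% at the mean methylphenidate count.

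Htr1d has a pair of annotated start sites, and the 250 bases before each are shown because this gene had the largest fold change of the family. Sequences are from RefSeq on GRCm38.p6, a build older than that of the counts, and capitals mark matches to a GC box (GGGCGG) or a CCAAT box (CCAAT) on either strand. The first, at chr4:136423274-136423523 on the plus strand, holds 1 of each, and the second, at chr4:136424362-136424611 on the plus strand, holds 3 GC boxes.
Htr1d, first start: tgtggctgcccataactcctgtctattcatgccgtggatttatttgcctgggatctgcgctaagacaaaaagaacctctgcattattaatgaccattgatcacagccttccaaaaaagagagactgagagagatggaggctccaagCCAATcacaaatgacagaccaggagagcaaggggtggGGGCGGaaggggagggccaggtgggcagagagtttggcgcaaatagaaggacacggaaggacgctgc
Htr1d, second start: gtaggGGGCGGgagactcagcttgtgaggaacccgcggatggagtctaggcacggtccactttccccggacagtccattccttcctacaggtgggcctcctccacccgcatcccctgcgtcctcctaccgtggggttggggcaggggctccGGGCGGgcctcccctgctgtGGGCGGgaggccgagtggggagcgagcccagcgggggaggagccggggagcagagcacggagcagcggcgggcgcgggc
A GC box was present in 32.7% and a CCAAT box in 33.8% of all 32851 windows of this length in the RefSeq table. Windows were matched for 8 of 10 members, all but Htr3a and Htr4, giving 9 windows, of which 4 held a GC box and 3 a CCAAT box. A TATA box (TATAAA) and an E-box (CACGTG) were in 0 of the 9 windows, against 12.4% and 6.0% of all windows, and the core of the cyclic AMP response element (TGACG) was in 1, that of Htr7, against 17.8%. Such matches describe letters, not binding.

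Htr1f encodes a further Gi/o-coupled receptor, the target of the migraine drug lasmiditan. It lay at 3.12, 3.79 and 4.38 CPM in saline replicates 1, 2 and 3 and at 3.02, 2.77 and 1.94 CPM in methylphenidate replicates 1, 2 and 3. Every methylphenidate library lay below every saline library, although replicate 1 of each lineage lay close together. The log2 fold change was -0.54 (SE 0.26, adjusted p by edgeR = 0.685), and -0.38 without methylphenidate replicate 3.

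Htr1b encodes a receptor of nerve terminals that, on raphe axons, with cell bodies outside the cortex, is the autoreceptor limiting serotonin release. It lay at 5.25, 6.37 and 5.25 CPM in saline replicates 1, 2 and 3 and at 7.37, 5.87 and 8.07 CPM in methylphenidate replicates 1, 2 and 3. Methylphenidate replicate 2 fell inside the saline range, and the log2 fold change was 0.34 (SE 0.19, adjusted p by edgeR = 0.749). Exons of Htr1b overlap those of D430036J16Rik, on the opposite strand, in GENCODE M21. No source used here states whether counting used the strand, so reads of this pair cannot be told apart. Htr5a, at 19.6, 22.7 and 20.6 CPM in saline replicates 1, 2 and 3 and 24.8, 21.2 and 15.6 CPM in methylphenidate replicates 1, 2 and 3, overlapped between lineages. Its log2 fold change was -0.03 (SE 0.16, adjusted p by edgeR = 0.978). The coefficient of variation of Htr5a was 7.59% for saline and 22.6% for methylphenidate libraries, where counting error gives 4.34% and 4.36%.

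**Figure D3:**
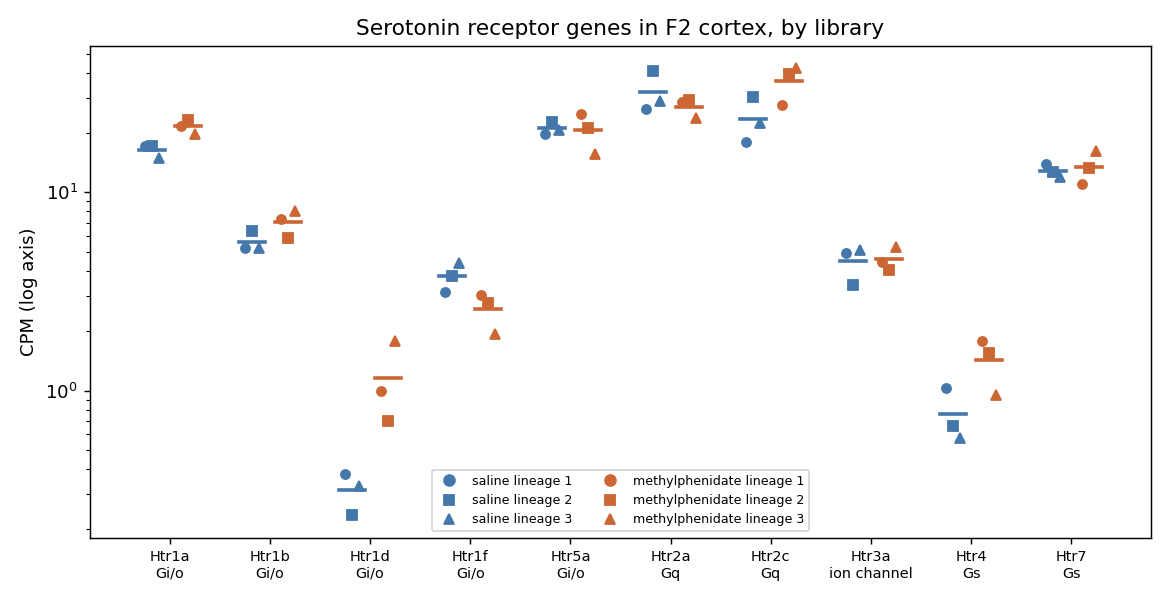
CPM of each receptor gene (y axis, log scale) in the 6 libraries, with circles, squares and triangles for replicates 1, 2 and 3 and horizontal lines for the mean of each lineage (blue, saline; orange, methylphenidate). The methylphenidate points lie above all saline points for Htr1a and Htr1d and below them for Htr1f, and overlap them elsewhere.

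The Gq-coupled pair had log2 differences of opposite sign. Htr2a lay at 26.2, 41.0 and 28.7 CPM in saline replicates 1, 2 and 3 and at 28.4, 29.2 and 23.6 CPM in methylphenidate replicates 1, 2 and 3. Saline replicate 2 stood far above the other 5 libraries, which lay within 23.6 to 29.2 CPM. The log2 fold change was -0.24 (SE 0.16, adjusted p by edgeR = 0.794), and -0.02 without saline replicate 2.

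Htr2c lay at 17.9, 30.2 and 22.3 CPM in saline replicates 1, 2 and 3 and at 27.6, 39.3 and 42.2 CPM in methylphenidate replicates 1, 2 and 3. The groups overlapped, since saline replicate 2 lay above methylphenidate replicate 1. The saline mean was 23.4 ± 6.21 CPM and the methylphenidate mean 36.4 ± 7.74 CPM (SD, n = 3 per group), a log2 difference of 0.63 (SE 0.20, adjusted p by edgeR = 0.526). DESeq2 gave 0.63 with an adjusted p of 0.0698, the smallest adjusted p of a receptor under the alternatives run, where DESeq2 called 0.756% of 19711 genes. When each library was left out in turn, the log2 fold change of Htr2c ran from 0.47 to 0.86, and no edgeR adjusted p passed the threshold.

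Htr2c is the receptor gene whose RNA is edited, in that ADAR enzymes convert adenosines in the coding sequence of an intracellular loop to inosine, which weakens the coupling to Gq. The stretch is shown because counts per gene pool all edited forms. It is a run of 57 bases of coding sequence from a GENCODE M21 transcript (GRCm38), 5′ to 3′, and capitals mark the 5 adenosines known to be edited.
Htr2c, edited stretch: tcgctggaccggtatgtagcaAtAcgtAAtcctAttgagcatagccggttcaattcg
Editing was not measured. Of the editing enzyme genes, Adar differed by -0.07 (log2, SE 0.06, edgeR adjusted p = 0.868) and Adarb1 by -0.05 (log2, SE 0.08, edgeR adjusted p = 0.935), and both overlapped between lineages. The 250 bases before the annotated start of Htr2c, at chrX:146962263-146962512 on the plus strand of GRCm38.p6 in RefSeq, are given because the balance of Htr2c and Htr2a is described next, and hold 1 CCAAT box, read on the opposite strand as ATTGG.
Htr2c, before the start: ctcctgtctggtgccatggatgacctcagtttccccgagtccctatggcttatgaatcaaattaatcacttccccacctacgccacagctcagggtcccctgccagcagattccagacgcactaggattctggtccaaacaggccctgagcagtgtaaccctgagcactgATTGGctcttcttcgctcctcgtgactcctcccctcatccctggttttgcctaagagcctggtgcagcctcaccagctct

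Within a library, where scaling cancels, the balance of the receptors can be read as a ratio of counts, a comparison chosen after the values were seen and given without a test. The ratio of Htr2c to Htr2a was 0.68, 0.74 and 0.78 in saline replicates 1, 2 and 3 and 0.97, 1.35 and 1.79 in methylphenidate replicates 1, 2 and 3. Htr2a counts thus exceeded Htr2c counts in all 3 saline libraries, and Htr2c counts exceeded Htr2a counts in methylphenidate replicates 2 and 3. The ratio of Htr1a to Htr2a was 0.65, 0.42 and 0.52 in saline and 0.76, 0.80 and 0.83 in methylphenidate replicates 1, 2 and 3. Within the Gi/o class, the ratio of Htr1a to Htr1f was 5.46, 4.49 and 3.38 in saline and 7.12, 8.38 and 10.2 in methylphenidate replicates 1, 2 and 3. Saline and methylphenidate libraries did not overlap in any of these 3 ratios, which set receptors seen to be higher over receptors seen to be lower, so that the choice favours separation. Of all 45 pairs of the 10 receptors, 18 had count ratios that did not overlap between lineages. The pairs share genes, and some include Htr1d, which was tested only because it was high in 1 group. The share over pairs of all genes was not computed, so this count is only a description. Ratios of counts do not compare levels between genes, since exon lengths differ.

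**Figure D4:**
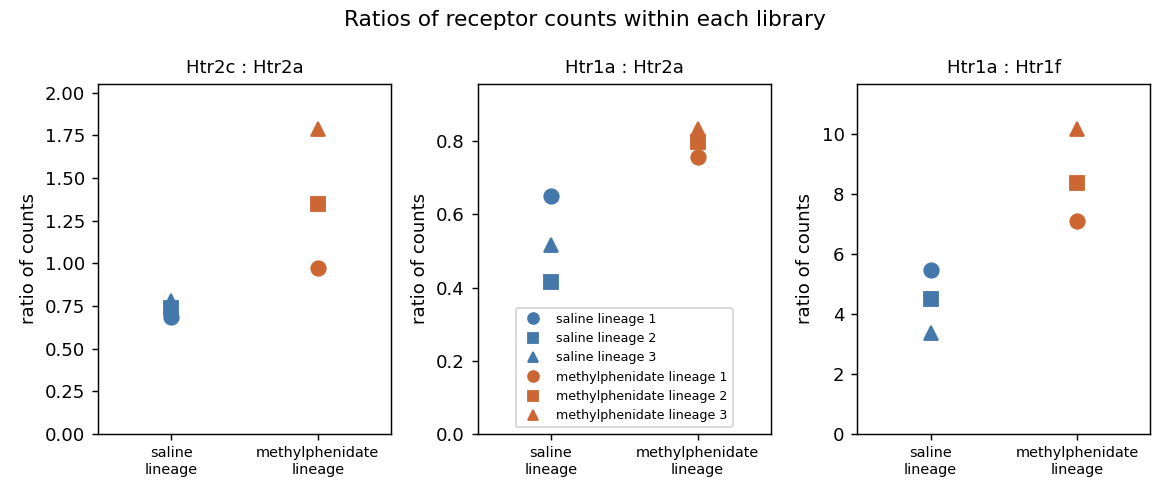
Ratio of counts of Htr2c to Htr2a, Htr1a to Htr2a and Htr1a to Htr1f (y axes, from 0) in each library, with lineage on the x axis and circles, squares and triangles for replicates 1, 2 and 3. In each panel all 3 methylphenidate libraries lie above all 3 saline libraries, for Htr2c to Htr2a at 0.97 to 1.79 against 0.68 to 0.78.

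Per kilobase, shares were taken of the summed level of the 10 receptors, which leaves out Htr6, a further Gs-coupled receptor. Htr6 lay at a mean of 5.82 CPM (not per kb) and has 2.34 kb of exon. The Gs share given here is that of Htr4 and Htr7 alone, and would be larger with Htr6. Gi/o-coupled receptors made up 40.5 to 42.7% in the saline libraries and 38.8 to 47.5% in the methylphenidate libraries. The Gq-coupled pair made up 28.5 to 39.1% and 30.6 to 34.6%, the Gs-coupled pair 14.4 to 18.6% and 13.7 to 18.6%, and Htr3a 6.05 to 10.3% and 7.12 to 9.54%. The lineages overlapped in every class. The summed level of the 10 receptors was 23.2 to 27.0 CPM per kb in saline and 26.2 to 27.2 CPM per kb in methylphenidate libraries.

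Htr3a, the ion channel subunit, lay at 4.95, 3.40 and 5.09 CPM in saline replicates 1, 2 and 3 and at 4.47, 4.04 and 5.27 CPM in methylphenidate replicates 1, 2 and 3. Saline replicate 2 was the lowest of the 6, and the lineages overlapped (log2 difference 0.04, SE 0.23, adjusted p by edgeR = 0.984). Ric3, which encodes a chaperone of this channel family, had a log2 difference of -0.08 (SE 0.09, adjusted p by edgeR = 0.887).

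Of the Gs-coupled receptors, Htr4, known from hippocampus and basal ganglia, had 27, 17 and 14 counts in saline replicates 1, 2 and 3 and 43, 44 and 23 counts in methylphenidate replicates 1, 2 and 3. That is 1.03, 0.66 and 0.58 CPM against 1.78, 1.55 and 0.95 CPM, with methylphenidate replicate 3 below saline replicate 1. The log2 fold change was 0.91 (SE 0.41, adjusted p by edgeR = 0.667). Htr7, the more abundant Gs-coupled receptor, lay at 13.9, 12.7 and 11.9 CPM in saline and at 11.0, 13.3 and 16.1 CPM in methylphenidate replicates 1, 2 and 3. The methylphenidate libraries spanned the saline range on both sides, and the log2 fold change was 0.07 (SE 0.16, adjusted p by edgeR = 0.951).

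The receptor genes outside these 10 were scarce apart from Htr6, a Gs-coupled receptor. Htr6 lay at 4.72, 5.08 and 6.99 CPM in saline and at 5.47, 6.39 and 6.30 CPM in methylphenidate replicates 1, 2 and 3 (log2 difference 0.11, SE 0.20, adjusted p by edgeR = 0.939). Htr5b had 7 to 19 counts per library and a log2 difference of -0.36 (SE 0.54, adjusted p by edgeR = 0.925). Htr2b, with 2 to 13 counts per library, lay below the filter, and Htr3b was not analysed here.

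Serotonin is made by raphe neurons, whose cell bodies lie outside the cortex. Of 11 genes for its synthesis, transport and breakdown, 8 were tested and 0 passed the threshold, with 5 above 0 and 3 below and a median log2 fold change of 0.09. Slc6a4, the serotonin transporter gene, had 0 counts in 4 of the libraries and 4 in methylphenidate replicates 1 and 3, and a count of 0 allows up to 3 counts, or 0.105 to 0.124 CPM. Tph1, a tryptophan hydroxylase gene, had 2, 0 and 0 counts in saline and 6, 18 and 8 in methylphenidate replicates 1, 2 and 3, below the filter. Tph2, the neuronal tryptophan hydroxylase gene, lay at 1.18, 1.21 and 1.49 CPM in saline and 2.24, 1.41 and 2.02 CPM in methylphenidate replicates 1, 2 and 3 (log2 difference 0.54, SE 0.32, adjusted p by edgeR = 0.757). Slc29a4, the low-affinity monoamine transporter gene, had a log2 difference of 0.33 (SE 0.15, adjusted p by edgeR = 0.660), and Slc18a2 and Maob had 0.28 (SE 0.36) and -0.19 (SE 0.14). Fev was not analysed here.

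Genes downstream of the receptors were read by class. Over the 5 lists of synthesis, effector and partner genes, 0 of 55 tested genes of 58 passed the threshold, with 22 above 0 and 33 below, where 50.3% of all genes tested were above 0. At an unadjusted p under 0.05 there were 9, where 7.51% of all genes tested passed.

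Of the Gi/o effectors, 2 of 11 were above 0 and 9 below, with a median log2 fold change of -0.08. Kcnj3, a subunit of the potassium channel opened by Gi/o receptors, had a log2 difference of -0.23 (SE 0.10, adjusted p by edgeR = 0.636), and Gnai1, Gnai2 and Rgs4 had -0.16 (SE 0.07), 0.12 (SE 0.07) and -0.23 (SE 0.13). Of the Gq effectors, 3 of 10 were above 0 and 7 below, with a median of -0.09. Plcb4, a phospholipase C gene, lay at 87.0 to 110.8 CPM in saline and 55.3 to 85.9 CPM in methylphenidate libraries, without overlap (log2 difference -0.44, SE 0.15, adjusted p by edgeR = 0.563). Plcb1, another phospholipase C gene, had a log2 difference of -0.15 (SE 0.07). Gna14, a Gq family alpha subunit gene, had 20, 13 and 12 counts in saline and 7, 2 and 0 in methylphenidate replicates 1, 2 and 3 (log2 difference -2.27, SE 0.82, adjusted p by edgeR = 0.591). Gna14 passed the filter only through the saline libraries, so it had to differ to be tested, and its values are a description.

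Of the Gs effectors, 6 of 13 were above 0 and 7 below, with a median of -0.01. Adcy5, an adenylyl cyclase gene strong in striatum, lay at 126.2 to 171.5 CPM in saline and 175.3 to 292.5 CPM in methylphenidate libraries (log2 difference 0.66, SE 0.17, adjusted p by edgeR = 0.353). Gnal, the G protein alpha subunit of the striatum and olfactory system, Adcy2 and Adcy9 had log2 differences of 0.18 (SE 0.08), -0.14 (SE 0.06) and -0.25 (SE 0.12). Of 13 partner, editing and repressor genes, 6 were above 0 and 7 below, with a median of -0.03. S100a10, whose product p11 brings Htr1b and Htr4 receptors to the cell surface, lay at 8.79, 9.45 and 8.68 CPM in saline and 11.2, 12.6 and 12.4 CPM in methylphenidate replicates 1, 2 and 3 (log2 difference 0.43, SE 0.13, adjusted p by edgeR = 0.495). Its groups did not overlap. Mpdz, which encodes a scaffold that binds the Htr2c receptor, had a log2 difference of 0.18 (SE 0.07, adjusted p by edgeR = 0.618), and Dlg4, the postsynaptic scaffold gene, one of 0.06 (SE 0.07).

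Markers of neighbouring tissue are given beside the receptors, and 0 of them passed the threshold. All 11 tested striatal projection neuron markers of 12 had log2 fold changes above 0, with a median of 1.17, where 50.3% of all genes tested were above 0. Against 13.5% of all genes tested, 7 of the 12 did not overlap between groups, and these include Isl1, which was not tested. Six3 lay at 0.27 and 0.33 CPM in saline replicates 2 and 3, and Drd2 at 0.16 CPM in saline replicate 2. Both passed the filter only with methylphenidate libraries, so the filter favoured their direction. None of the 12 was at 0 in all libraries. Among the most abundant, Ppp1r1b and Pde10a had log2 differences of 0.72 (SE 0.28) and 1.17 (SE 0.24). Averaged over the list, centred log2 CPM was -0.22, -0.76 and -0.95 in saline and 0.77, -0.07 and 1.22 in methylphenidate replicates 1, 2 and 3. Htr1d had the same top 4 libraries in the same order, from methylphenidate replicate 3 through replicates 1 and 2 to saline replicate 1. Saline replicates 2 and 3 stood in the reverse order. The list separated the lineages, and Htr1d was tested only because it was high in the methylphenidate libraries. That these libraries came first in both therefore carries no weight, and a striatal part in the Htr1d values was not tested. With the striatal list mean as a covariate in the edgeR fit, chosen after the data were seen, the log2 fold change of Htr1d was 0.64 (SE 0.78). That of Htr1f was -0.03 (SE 0.47) and that of Htr1b 0.01 (SE 0.34). Those of Htr1a, Htr2c and Htr4 were 0.50 (SE 0.19), 0.82 (SE 0.36) and 0.93 (SE 0.71), with larger standard errors than without it. No receptor passed the threshold in that fit (edgeR adjusted p of at least 0.998 for each), and the covariate itself separates the lineages.

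Hypothalamic and basal forebrain markers summed to 4.37 to 5.79 CPM in saline and 11.2 to 35.7 CPM in methylphenidate libraries. All 8 tested of 10 had log2 fold changes above 0, where 50.3% of all genes tested did, and no marker was at 0 in every library. Slc18a3 passed the filter on low counts only through the methylphenidate libraries. Trh, Avp, Agrp, Chat and Nkx2-1 passed only with them, so the filter favoured this direction for all of these genes. Most of the tested markers were thus let in with the group where they were high, and the count of signs is only a description. The most abundant markers of this list were Pomc, Slc5a7 and Trh. Pomc lay at 19.4 CPM in methylphenidate replicate 3 and at 1.49 to 2.58 CPM in the other 5 libraries. Upper layer markers had all 6 log2 fold changes below 0 (median -0.23) and summed levels of 920.3 to 947.4 and 738.9 to 879.2 CPM, of which Lamp5, Rasgrf2 and Calb1 had log2 differences of -0.28 (SE 0.09), -0.17 (SE 0.08) and -0.00076 (SE 0.10). None of these genes passed the threshold, and the part of these 2 lists in the receptor values was not tested.

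Choroid plexus, the tissue that forms cerebrospinal fluid, is known for strong Htr2c expression. All 10 choroid plexus markers had log2 fold changes below 0, with a median of -0.70, where 50.3% of all genes tested were above 0. Groups did not overlap in 0 of the 10, against 13.5% of all genes tested. The mean centred log2 CPM of these markers was -1.46, 1.43 and 0.78 in saline and 0.78, 0.13 and -1.67 in methylphenidate replicates 1, 2 and 3. Methylphenidate replicate 3, the lowest in these markers, was the highest in Htr2c at 42.2 CPM. Among the saline libraries the order of Htr2c was that of the markers, and among the methylphenidate libraries it was the reverse. Ttr, the most abundant of these markers, lay at 36.4, 585.9 and 375.8 CPM in saline and 458.6, 177.5 and 16.8 CPM in methylphenidate replicates 1, 2 and 3.

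For Htr3a, the matching list is that of CGE interneurons, of which 7 of 9 were above 0 with a median log2 fold change of 0.25. Their summed level was 605.9 to 693.6 CPM in saline and 691.6 to 744.0 CPM in methylphenidate libraries. The most abundant, Cck, Cnr1 and Reln, had log2 differences of -0.04 (SE 0.08), 0.27 (SE 0.08) and 0.31 (SE 0.11), and Vip had -0.07 (SE 0.10). The lineages did not overlap in the mean of the list and overlapped in Htr3a. The part of this list in the Htr3a values was not tested.

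**Figure D5:**
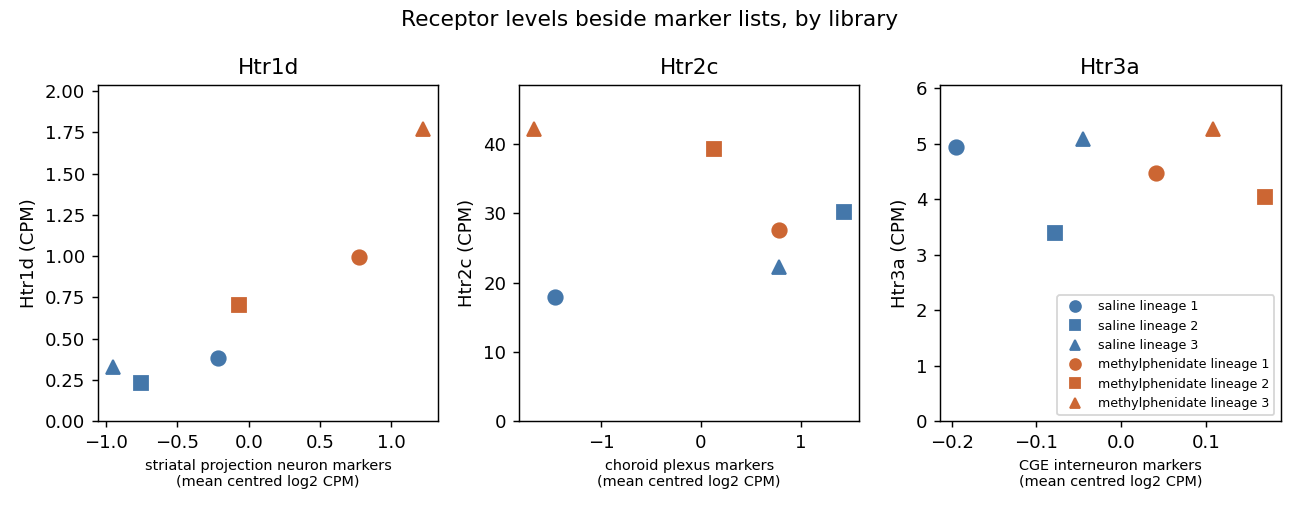
CPM of Htr1d, Htr2c and Htr3a (y axes, from 0) against the mean centred log2 CPM of striatal projection neuron, choroid plexus and CGE interneuron markers (x axes), 1 point per library with colours and symbols for lineage and replicate. Htr1d is highest, 1.77 CPM, in the library with the highest striatal mean, 1.22, while Htr2c is highest in the library with the lowest choroid plexus mean, -1.67.

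The genes whose pattern over the 6 libraries lay closest to a receptor were sought among genes with a mean of at least 10 CPM, by the root mean square difference of centred log2 CPM. For Htr2c, the receptor with the highest mean CPM, these were Cabp7, Crym and Wfs1, at 0.16, 0.17 and 0.17 of 10417 genes. For Htr1d, the receptor with the smallest p, they were Gng7, Asic4 and Drd1, at 0.12, 0.16 and 0.17 of 10418 genes. Drd1, the D1 dopamine receptor gene, and Gng7 are known for strong expression in striatal projection neurons, and Drd1 is on the striatal list. Htr1d was picked by its p and was tested only because it was high in the methylphenidate libraries. Its nearest patterns were bound to share that difference and carry no weight. Wfs1 had a log2 difference of 0.60 (SE 0.12, adjusted p by edgeR = 0.192) and is on a list of 9 hippocampal markers. Of these, 3 were above 0 and 6 below, with a median log2 fold change of -0.0012. Groups did not overlap in 4 of the 9 (Wfs1, Zbtb20 and Spink8 higher, Dsp lower), against 13.5% of all genes tested. The mean of that list did not separate the lineages. Its summed level did, at 317.8 to 344.4 CPM in saline and 363.2 to 416.3 CPM in methylphenidate libraries. All root mean square differences come from the same 6 libraries. With a constant of 0.5 CPM added before the logarithm they understate the spread of scarce genes such as Htr1d.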

How the data were processed

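The authors deposited raw gene counts, as whole numbers, with Ensembl identifiers and symbols. Software recorded in the submitters' processing notes, with no roles, comprised HISAT2 2.2.1, StringTie 2.2.1, fastp 0.23.4 and bcl2fastq 2.19, with the build GRCm39. No source used here gives the annotation, the strand setting or how counts were derived. R 4.3.3 and edgeR 4.0.16 (filterByExpr, TMM, glmQLFit, glmQLFTest, group as the only term, two-sided) tested 18327 genes, with Benjamini-Hochberg adjustment and a threshold of 0.05. Each SE was computed from the log2 fold change and its F value. Exon lengths and overlaps came from GENCODE M21 (GRCm38), an older build than that of the counts. Receptor transcripts shared no run of 31 bases (0 of 45 pairs). Replicate pairs of a lineage had a chi-square over degrees of freedom of 13.0 to 19.9, so none was a duplicate. Alternatives used DESeq2 1.42.0, limma 3.58.1 (voom), other scalings and filters, a replicate block and each library left out. The edgeR step was tested on simulated data. Members, gene lists and tests were chosen with earlier results of these data known. Named genes were all receptors, up to 4 of smallest p and those under the filter in each pathway list, up to 3 of the most abundant in marker lists that separated the lineages, and the 3 nearest patterns of the receptor with the highest mean CPM and of that with the smallest p. Adarb1, Ric3, Vip, Ttr and the count ratios were added after the values were seen. Some genes the naming rule takes are not reported here.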

Additional observations from a re-analysis of the deposited data

How the results depend on the processing

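The number of receptors past the threshold was 0 under all 16 alternatives. Over the whole table the count of 5 genes became 10 with total counts, 3 with no filter on low counts, 149 with DESeq2, 2 with the replicate block and 2 with the striatal marker mean as covariate, which was added after the data were seen, and it ran from 2 (without methylphenidate replicate 3) to 26 (without methylphenidate replicate 1) when each library was left out in turn. Of 159 values of a receptor's log2 fold change under an alternative, 150 kept their direction and their side of the threshold and 9 changed sign, none of them past it. The striatal covariate turned Htr5a to 0.25, Htr2a to 0.10, Htr3a to -0.29 and Htr7 to -0.17, and the cause was not tested. With each library left out in turn Htr5a ran from -0.19 to 0.13, Htr3a from -0.13 to 0.14 and Htr7 from -0.082 to 0.19, with the sign changed without saline replicate 2 for Htr5a (0.03) and Htr3a (-0.13) and without methylphenidate replicate 3 for Htr5a (0.13), Htr3a (-0.075) and Htr7 (-0.082). Same-numbered replicates had deviations from their group means that correlated at -0.06, 0.10 and -0.02 over genes, so the numbers were not read as pairs, and the replicate block gave Htr2c a log2 fold change of 0.64 (edgeR adjusted p = 0.248). Htr1d was untested when a gene needed 10 counts in each of 3 libraries and 1 CPM on average. At the depth of Htr1d and Htr4, with 6 to 44 counts per library, counting error limits what can be seen.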
